A study of Mus musculus with 6 samples.

Results

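Long non-coding RNAs that work in the nucleus or carry small nucleolar RNAs (snoRNAs) in their introns were followed in mouse oocytes with and without LSM14B. The set has 10 genes of the 24255 listed: Malat1 and Neat1, which belong to nuclear bodies, Meg3 and Kcnq1ot1, which are imprinted, and the snoRNA hosts Gas5, Snhg1, Snhg3, Snhg6, Snhg8 and Snhg12. The set was picked because Malat1 was higher in every Lsm14b-KO library, so the Malat1 difference is given as a description with no test, and the counts over the set are read against the background of all genes and support nothing by themselves. The libraries came from fully-grown oocytes (FGOs) at the germinal vesicle (GV) stage, which have completed growth and await the resumption of meiosis. There were 3 WT and 3 Lsm14b-KO libraries of 20 oocytes each, from C57BL/6J females given 5 IU of PMSG, a gonadotropin, 46 h earlier. Lsm14b-KO females were homozygous for Lsm14b tm1a(KOMP)Mbp, a reporter-tagged insertion present in every cell of the animal, so the insertion was present throughout oocyte growth and was not limited to a stage. Oocytes were pooled, and the labels do not say whether libraries of 1 genotype came from different females. Every p-value below therefore measures the spread between libraries, which may be technical. The study bred Lsm14b-KO mice from homozygous males and heterozygous females, a cross that yields no WT offspring. WT females therefore came from other matings, so genotype and mating cannot be told apart.

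Long non-coding RNAs of this set have different ways of working. Malat1 is a very abundant RNA of nuclear speckles, where splicing factors gather, and Neat1 is the scaffold of paraspeckles. Meg3 is expressed from the maternal chromosome, whereas Kcnq1ot1 is expressed from the paternal one and silences neighbouring genes in cis. The snoRNA hosts are usually spliced, their introns are processed into snoRNAs that guide the modification of ribosomal RNA, and the spliced remainder of several of them is removed by nonsense-mediated decay. Many hosts belong, with the mRNAs of the translation machinery, to the 5′ terminal oligopyrimidine (TOP) class, whose transcripts begin with a run of C and T.

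The start sites of the hosts are shown because such a run marks the TOP class. RefSeq promoter entries (GRCm38.p6) were matched for 8 of the 10 members. In each 30-base window, which begins 10 bases before the annotated start and reads 5′ to 3′ on the gene's strand, capitals mark the longest unbroken run of C and T that begins within 5 bases of the start. Snhg12 lies at chr4:132308668-132308697 (+ strand), Snhg1 at chr19:8723477-8723506 (+), Snhg8 at chr3:123508317-123508346 (-), the second of the annotated Gas5 starts at chr1:161035156-161035185 (+), Snhg3 at chr4:132353667-132353696 (-) and, for contrast, Malat1 at chr19:5802653-5802682 (-).
Snhg12: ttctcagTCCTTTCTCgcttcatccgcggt
Snhg1: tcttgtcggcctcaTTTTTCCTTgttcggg
Snhg8: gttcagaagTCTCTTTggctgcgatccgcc
Gas5: ccatctcagCCTTTCggagctgtgcggcat
Snhg3: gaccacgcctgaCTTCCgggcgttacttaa
Malat1: ggctctgcgTCaggcattcaggcagcgaga

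The run was 9 bases long in Snhg12 and Snhg1, 7 in Snhg8, 6 in Gas5 and 5 in Snhg3, against 2 in Malat1. With the first base of the transcript as 1, it began at -3 in Snhg12, -1 in Snhg8 and this Gas5 start, 3 in Snhg3 and 5 in Snhg1. A run counted here therefore need not begin at the annotated start. Over all 32851 promoters, the median run was 3 bases, 26.4% of promoters had a run of at least 5 and 5.8% a run of at least 8. Kcnq1ot1 had a run of 2, the annotated Meg3 starts had runs of 5 and 1, and the other Gas5 start had a run of 3. The longest runs of the set, in Snhg12, Snhg1, Snhg8 and Gas5, were at hosts, but the run of Snhg3 was no longer than that of a Meg3 start, and Snhg6 had no entry.

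The transcripts also differed in length and structure. Per GENCODE vM21 (GRCm38, the assembly also called mm10), Malat1 is a 6983-nt lincRNA of 1 exon at chr19:5795690-5802672 (- strand), and Neat1, also of 1 exon, is 20771 nt long and lies on the same chromosome at 5824708-5845478 (- strand). Kcnq1ot1 is a single exon of 93092 nt at chr7:143203458-143296549 (- strand), and Meg3 has 5 exons and 14548 nt at chr12:109541001-109571726 (+ strand). The Snhg hosts are short, from 400 nt in Snhg6 (4 exons, chr1:9941959-9944118, - strand) to 776 nt in Snhg8, whereas Gas5, with 2556 nt, is near the median tested transcript of 2258 nt. Their introns and exons span 10 annotated snoRNA genes in Gas5, 8 in Snhg1, 5 in Snhg12, 2 in Snhg3 and 1 each in Snhg6 and Snhg8.

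CCTCTC was counted in each transcript because these letters are those of the motif that the study gives for LSM14B. Malat1 held it 1 time, beginning at base 5723 of 6983, which is 0.143 matches per kb. The median over 6318 tested transcripts was 0.228 per kb (quartiles 0 and 0.606), and 54.1% of them held at least 1 match. The only match in Malat1 is shown in 30 bases of the transcript, chr19:5796933-5796962 (- strand), with the motif in capitals.
Malat1 match: ctagtgttgaatCCTCTCcagcttcatgct

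Meg3 held 10 matches (0.687 per kb), Neat1 9 (0.433 per kb), Kcnq1ot1 23 (0.247 per kb) and Snhg12 1 (1.65 per kb). Gas5, Snhg1, Snhg3, Snhg6 and Snhg8 held none. A match of these letters is a description of the transcript and no binding site, and its absence says nothing about LSM14B.

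Levels are given as FPKM, sequenced fragments divided by transcript length and by library size, as deposited. The 6 libraries differed in scale: FPKM summed to between 1141324 and 1244182 in WT, to 1029728 in Lsm14b-KO replicate 1 and to only 564671 and 676656 in replicates 2 and 3. From the step between the lowest values, about 3730000 to 4260000 fragments stood behind the WT values and about 4940000, 7270000 and 8070000 behind Lsm14b-KO replicates 1 to 3, with 69.4% to 71.9% of low values within 0.1 of a whole number of fragments. The targeted gene followed the labels, with Lsm14b at 2.77, 3.98 and 1.72 FPKM in WT and at 0, 0 and 0.102 FPKM in Lsm14b-KO. Oocyte markers were present in all libraries, with 13 of 13 marker genes tested. Of these 2 rose and 0 fell, or 15.4% called, against 21.6% of all tested genes. Their sum was 44247 to 55335 FPKM in WT and 29026 to 71074 FPKM in Lsm14b-KO, so it was not even between libraries. The summed level of 19 cumulus and granulosa cell markers was 90.5 to 99.4 FPKM in WT and 31.0 to 39.1 FPKM in Lsm14b-KO. Most of that sum was Esr2, at 78.7 to 89.6 against 20.8 to 30.1 FPKM, and Cyp19a1, at 8.26 to 11.5 against 3.00 to 5.76 FPKM, while other markers lay higher in Lsm14b-KO: Fshr had 1.68, 0.526 and 0.349 FPKM in WT and 2.07, 1.91 and 1.82 FPKM in Lsm14b-KO (adjusted p = 0.0923), and Kitl 0.097 to 0.383 against 0.402 to 0.559 FPKM. A further 9 markers, among them the defining Amh and Foxl2, were listed at 0 throughout. Of these 19 markers 4 could be tested and 2 fell, or 50% called, against 21.6% of all tested genes in the test given below. The part of such cells in the results below was not tested. Markers of theca and stroma summed to 0.174 to 0.397 FPKM, those of endothelium to 0.571 to 1.31 FPKM, those of immune cells to 0 to 0.733 FPKM, and those of red blood cells were listed at 0.

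Malat1 stood out in the set. Its level was 4.46, 4.87 and 4.52 FPKM in WT and 63.8, 64.4 and 52.3 FPKM in Lsm14b-KO. Every Lsm14b-KO library was far above every WT library, and the spread inside each genotype was small: 4.62 ± 0.22 FPKM (SD, n = 3) against 60.2 ± 6.80 FPKM (SD, n = 3). The ratio of the means was 13.03, and the lowest Lsm14b-KO value was still 10.7 times the highest WT value. On the log2(FPKM + 1) scale, on which all fold changes below are given as Lsm14b-KO minus WT, the difference was 3.44 (SE 0.24). FPKM is relative to the library, and total RNA per oocyte is not given, so more Malat1 per oocyte and less of other RNA cannot be told apart.

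**Figure D1:**
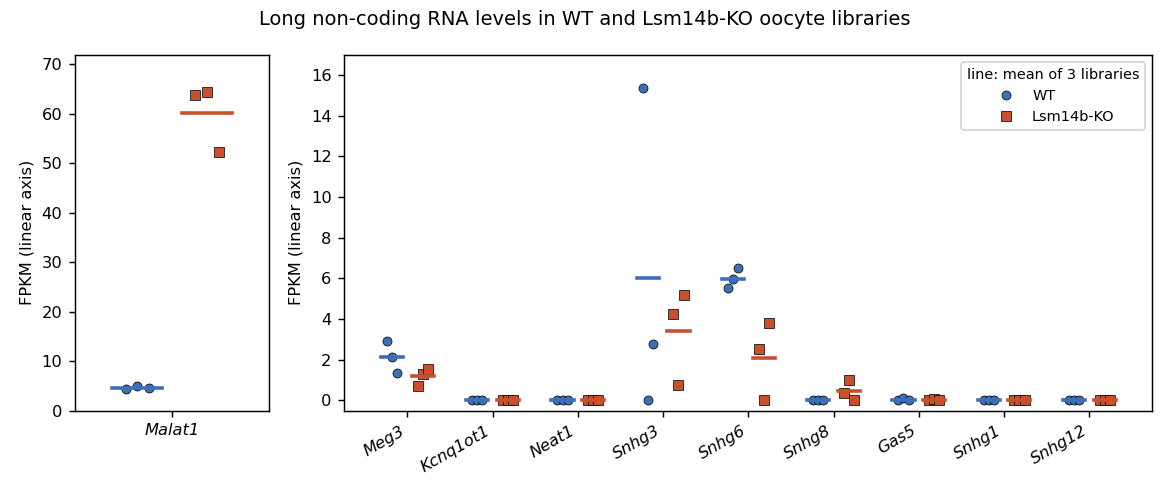
FPKM of the 10 long non-coding RNAs in each library on linear axes (left, Malat1; right, the 9 others on a smaller range), with circles for WT, squares for Lsm14b-KO and a line for the mean of 3 libraries. The Malat1 squares lie between 52.3 and 64.4 FPKM and the circles between 4.46 and 4.87 FPKM, while, among the other 9, Snhg6 alone has groups that do not overlap, with its squares below its circles.

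The difference did not shrink when the unequal library sums were removed. With every library scaled to the same FPKM sum, Malat1 had 3.48, 4.04 and 3.85 FPKM in WT and 60.2, 110.8 and 75.1 FPKM in Lsm14b-KO, and the ratio of means became 21.7. Lsm14b-KO replicate 2, the library with the lowest FPKM sum, moved most between the scales, and the groups were apart on both. About 116, 145 and 121 fragments stood behind the WT values and about 2202, 3271 and 2949 behind the Lsm14b-KO values, so counting error was small in either genotype. By level within a library, Malat1 ranked 2659th, 2551st and 2645th among all genes in WT, and 768th, 625th and 762nd in Lsm14b-KO.

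**Figure D2:**
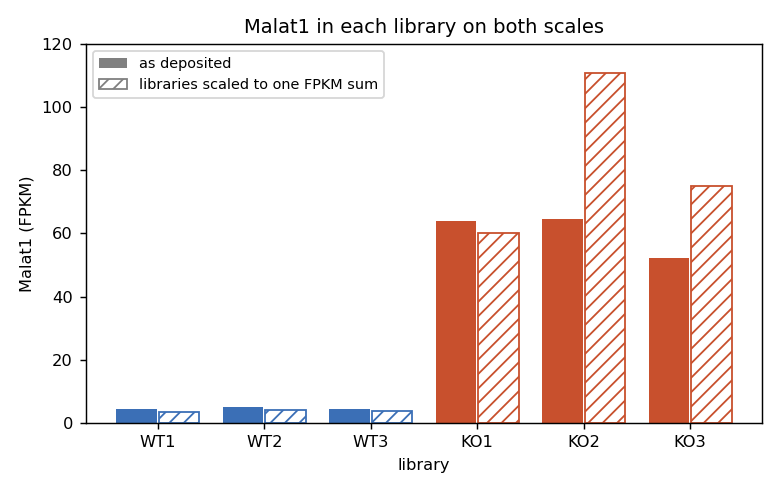
Malat1 in each of the 6 libraries (bars from 0), as deposited (filled) and with libraries scaled to the same FPKM sum (hatched). Lsm14b-KO replicate 2 reads 64.4 FPKM as deposited and 110.8 FPKM after scaling, and every Lsm14b-KO bar exceeds every WT bar on both scales.

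Genes with 1 FPKM or more in any library, 6398 in all, were tested with limma. The adjusted p, by the Benjamini-Hochberg method over these genes, was under 0.05 for 1383 genes, or 21.6%. Of the tested genes, 6.38% were called higher in Lsm14b-KO and 15.2% lower, and in 45.0% the values of the 2 genotypes did not overlap. Malat1 had the second-highest log2 fold change of all tested genes. The one gene above it was Tceal8, a transcription elongation factor A-like gene, at 12.1, 13.8 and 8.85 FPKM in WT and 532, 176 and 261 FPKM in Lsm14b-KO, which was noted after its values were seen. Calls at this number of libraries depended on single libraries: of the 21 genes outside the set that are named below as having risen or fallen, 6 (Mir22hg, Phlda2, Rbm8a, D630033O11Rik, 4930405A21Rik and Gm8579) passed whichever library was left out. With Lsm14b-KO replicate 1 left out all 21 passed, while 14 and 6 did so on leaving out replicates 2 and 3 of that genotype, and 6, 6 and 7 without WT replicates 1, 2 and 3. The direction was the same for all 21 in every setting tried.

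The filter kept 5 of the 10 members, Malat1, Meg3, Snhg3, Snhg6 and Snhg8, and 1 of them, Malat1, passed the threshold. Of the other 4, 0 passed in limma and 1, Snhg6, had an unadjusted p under 0.05. The values of the 2 genotypes did not overlap for Malat1 and Snhg6 among the members, which was also so for 45.0% of all tested genes. Snhg8 was kept only because Lsm14b-KO replicate 2 reached 1.02 FPKM. The difference between the genotypes had served to choose the set, and nothing is read from these counts.

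Neat1, the companion of Malat1 on chromosome 19, was listed at 0 in all 6 libraries. At 20771 nt, 1 fragment would have read as about 0.00597 to 0.0129 FPKM. A value listed at 0 can also be a failed estimate, since Fbl, the snoRNP methyltransferase that every growing cell uses, was listed at 0 in all 6 libraries as well, so nothing is read from a 0 about the presence of Neat1 or of any other member. Frmd8, the nearest coding gene on the far side of Neat1 and 47030 bp from Malat1, was low as well, with 0.0867 to 0.532 FPKM in WT and 0.196 to 0.356 FPKM in Lsm14b-KO. Of 13 genes listed around the pair, 1 could be tested, Cdc42ep2, a CDC42 effector. It had 5.59, 3.97 and 6.98 FPKM in WT and 5.87, 14.4 and 8.97 FPKM in Lsm14b-KO, with a log2 fold change of 0.67 and an adjusted p of 0.176. Neither Frmd8 nor Cdc42ep2 showed a separation of the genotypes like that of Malat1.

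Meg3 was the only member other than Malat1 that was above 0 in every library. It had 2.93, 2.14 and 1.35 FPKM in WT and 0.721, 1.30 and 1.55 FPKM in Lsm14b-KO, and the genotypes overlapped. The log2 fold change was -0.51 (SE 0.26, 95% interval -1.10 to 0.09), with an adjusted p of 0.178 in limma. Of 7 other genes of its imprinted domain, 0 reached the filter and 5, among them the paternally expressed Dlk1 and Rtl1, were listed at 0 throughout. Rian, the maternally expressed snoRNA host downstream of Meg3, had 0.0735 FPKM in WT replicate 3 and 0.0348 FPKM in Lsm14b-KO replicate 3 and was listed at 0 elsewhere. Wars, at the edge of the domain, was listed at 0 in WT replicate 1 and had 0.651 and 0.463 FPKM in replicates 2 and 3, against 0.598, 0.681 and 0.143 FPKM in Lsm14b-KO.

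Kcnq1ot1 was close to the limit of detection. It had 0.00604 FPKM in WT replicate 1, 0.00228 FPKM in Lsm14b-KO replicate 1 and 0.0042 FPKM in Lsm14b-KO replicate 3, or about 2, 1 and 3 fragments over 93092 nt, and 0 in the other 3 libraries. The exact permutation test gave a two-sided p of 1, and the smallest p that 3 against 3 libraries allow is 0.1. Kcnq1ot1 lies within Kcnq1 on the opposite strand, the sources do not state a stranded count, and 3 genes elsewhere share at least 200 nt with it at 95% identity or more, so these fragments are uncertain. Among 11 listed genes in the imprinted domain of Kcnq1ot1, 2 were tested and 1 fell, or 50% called, against 21.6% of all tested genes. Phlda2, an imprinted regulator of placental growth, fell from 13.1, 7.94 and 7.22 FPKM in WT to 1.997, 0.279 and 0 FPKM in Lsm14b-KO, with a log2 fold change of -2.69 (SE 0.42) and an adjusted p of 0.00581. Nap1l4, a nucleosome assembly protein, had 0.604 to 1.997 FPKM in WT and 1.69 to 2.92 FPKM in Lsm14b-KO and did not pass (adjusted p = 0.197). The maternally expressed Cdkn1c had 0.617, 0.135 and 0 FPKM in WT and 0.231, 0 and 0 FPKM in Lsm14b-KO, and Kcnq1 itself did not exceed 0.273 FPKM.

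Among the snoRNA hosts, Snhg6 was the one whose genotypes did not overlap, which was also so for 45.0% of all tested genes. Snhg6 had 5.51, 5.95 and 6.52 FPKM in WT and 2.50, 0 and 3.81 FPKM in Lsm14b-KO. The log2 fold change was -1.45 (SE 0.52, 95% interval -2.65 to -0.24), with an adjusted p of 0.0815 in limma. Lsm14b-KO replicate 2, listed at 0, was decisive for its size: without that library the log2 fold change was -0.77 (adjusted p = 0.0758). The separation also depended on the scale, because with equal FPKM sums Snhg6 had 4.30, 4.93 and 5.55 FPKM in WT and 2.36, 0 and 5.47 FPKM in Lsm14b-KO, which overlap. Snhg6 shares its locus with Mcmdc2 and its snoRNA Snord87, both listed at 0 in all libraries.

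Snhg3 varied more within WT than between the genotypes. It had 15.4, 0 and 2.75 FPKM in WT and 4.25, 0.779 and 5.16 FPKM in Lsm14b-KO. The log2 fold change was -0.03 (SE 0.93, 95% interval -2.18 to 2.11), and the interval does not settle a direction (adjusted p = 0.981 in limma). Snhg8 was listed at 0 throughout WT, and its Lsm14b-KO values were 0.364, 1.02 and 0 FPKM, with an adjusted p of 0.225. Prss12, which encodes a serine protease and lies 955 bp from Snhg8, had 17.2 to 23.2 FPKM in WT and 11.2 to 17.5 FPKM in Lsm14b-KO (adjusted p = 0.173). Gas5 had 0.0965 FPKM in WT replicate 2, 0.0566 FPKM in Lsm14b-KO replicate 2 and 0 elsewhere, and the exact permutation test gave a two-sided p of 1. Gas5 is a growth arrest transcript that is abundant in many resting cells, and it overlaps Zbtb37, a zinc finger gene on the opposite strand that had 1.08 to 1.11 FPKM in WT and 1.18 to 1.47 FPKM in Lsm14b-KO.

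Snhg1 and Snhg12 were listed at 0 in all 6 libraries. Slc3a2, next to Snhg1, encodes the heavy chain of amino acid transporters. It is transcribed away from it at a distance of 106 bp and rose from 3.06, 3.53 and 3.41 FPKM to 5.33, 10.8 and 6.77 FPKM, with a log2 fold change of 0.94 (SE 0.27) and an adjusted p of 0.0421. The snoRNA genes inside the hosts that the table lists, Snord47, Snord22, Snord87, Snora24, Snora16a, Snora44, Snora61 and Snord99, were also at 0 throughout. Per the labels RNA was amplified by Smart-seq2, which primes on poly(A) and is not designed for snoRNAs, so nothing is read from these values about the snoRNAs. Mature Malat1 ends in a triple helix in place of a poly(A) tail, and its FPKM therefore need not be in proportion to its molecules.

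Other members of the same families were examined to place the set. Of 16 further snoRNA hosts 9 were listed by the table and 4 were tested. Of these 0 rose and 1 fell (25% called, against 21.6% of all tested genes), with a median log2 fold change of -0.71 against -0.08 over all tested genes. Snhg18 fell from 8.75, 6.53 and 8.63 FPKM in WT to 3.89, 1.18 and 3.04 FPKM in Lsm14b-KO (log2 fold change -1.35, SE 0.32, adjusted p = 0.0255). Snhg10 had 1.67 to 1.99 FPKM in WT and 0 to 1.02 FPKM in Lsm14b-KO (adjusted p = 0.0527), and Snhg14, the imprinted transcript of the Prader-Willi region, had 1.15 to 2.88 FPKM in WT and 0.301 to 2.75 FPKM in Lsm14b-KO (adjusted p = 0.358). Snhg5 was the one with a positive difference, at 5.81, 4.14 and 3.92 FPKM in WT and 12.7, 3.67 and 8.34 FPKM in Lsm14b-KO (adjusted p = 0.274). With equal FPKM sums the calls became 1 higher (Snhg5) and 0 lower, so the calls of this family depended on the scale.

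Of 29 other well-known long non-coding RNAs, 27 were listed and 7 tested, of which 0 rose and 2 fell. That is 28.6% called, against 21.6% of all tested genes, with a median of -0.61. Mir22hg, the host of miR-22, fell from 10.1, 8.39 and 7.98 FPKM to 1.01, 0.26 and 0.617 FPKM (log2 fold change -2.61, SE 0.23, adjusted p = 0.00112). Pvt1, the neighbour of Myc, fell from 7.35, 7.46 and 6.96 FPKM to 4.04, 0.966 and 2.51 FPKM (log2 fold change -1.34, SE 0.34, adjusted p = 0.0292), a call that was lost with equal FPKM sums. Tug1, another long nuclear RNA, had 0.234, 0.308 and 0.712 FPKM in WT and 0.935, 2.79 and 1.36 FPKM in Lsm14b-KO, without overlap but short of the threshold (adjusted p = 0.061). Xist and H19 were listed at 0 in nearly every library, with 0.0125 FPKM of Xist in WT replicate 2 as the exception.

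**Figure D3:**
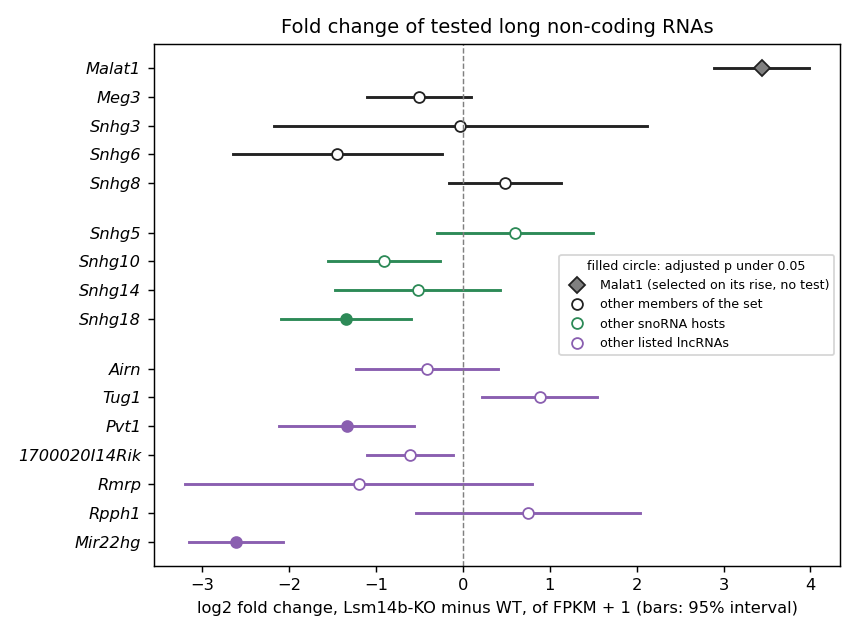
Log2 fold change of FPKM + 1 (Lsm14b-KO minus WT) with its 95% interval for 5 members, 4 further snoRNA hosts and 7 other long non-coding RNAs that were tested. Filled circles mark an adjusted p under 0.05 (Snhg18, Pvt1 and Mir22hg, all lower), and the Malat1 diamond at 3.44 was selected on its difference and carries no test.

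On the deposited scale, long non-coding RNA genes as an annotated class leaned the other way from Malat1. The class was added after the files had been seen. It was taken from GENCODE vM21 biotypes, which include processed transcripts such as Tmem134, a gene with a protein's name that was called higher. Some genes of the class may therefore be coding. The class held 1786 listed genes outside the set. Of these 1042 were listed at 0 in all libraries and 297 were tested. In the latter 10 rose and 74 fell, which makes 28.3% called against 21.6% of all tested genes. Over all tested genes 408 rose and 975 fell (6.38% and 15.2%). The class had a median log2 fold change of -0.56 against -0.08. The balance moved with the scale, in the class and over all tested genes. With equal FPKM sums it was 15 higher and 43 lower, against 833 higher and 486 lower of all 6398 genes. After a correction for transcript length and GC content it was 30 higher and 44 lower, against 646 and 787 of all 6318 genes. The class median was then -0.23 and -0.04, against 0.395 and 0.104 over all tested genes. The count was also sensitive to single libraries, at 32, 35 and 43 without WT replicates 1, 2 and 3, and at 130 and 28 without Lsm14b-KO replicates 1 and 3.

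The long non-coding RNAs with the largest falls have no assigned function. D630033O11Rik fell from 48.1, 55.5 and 71.3 FPKM to 3.64, 2.15 and 4.79 FPKM (log2 fold change -3.74, SE 0.31, adjusted p = 0.00085). 4930405A21Rik fell from 12.9, 15.1 and 10.0 FPKM to 0.517, 0 and 0 FPKM (log2 fold change -3.56, SE 0.25, adjusted p = 0.000544). Gm8579, which has near-identical copies at 2 other genes and is uncertain for that reason, fell from 36.4, 33.0 and 34.8 FPKM to 4.43, 1.41 and 1.47 FPKM (log2 fold change -3.49). Among those that rose, chosen after their values were seen, 1700116B05Rik went from 205, 175 and 137 FPKM to 1598, 408 and 636 FPKM (log2 fold change 2.13) and Gm20362 from 41.3, 35.6 and 49.6 FPKM to 133, 104 and 119 FPKM (log2 fold change 1.48). The difference of Malat1 was larger than that of any of the other tested long non-coding RNAs that were higher in Lsm14b-KO.

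**Figure D4:**
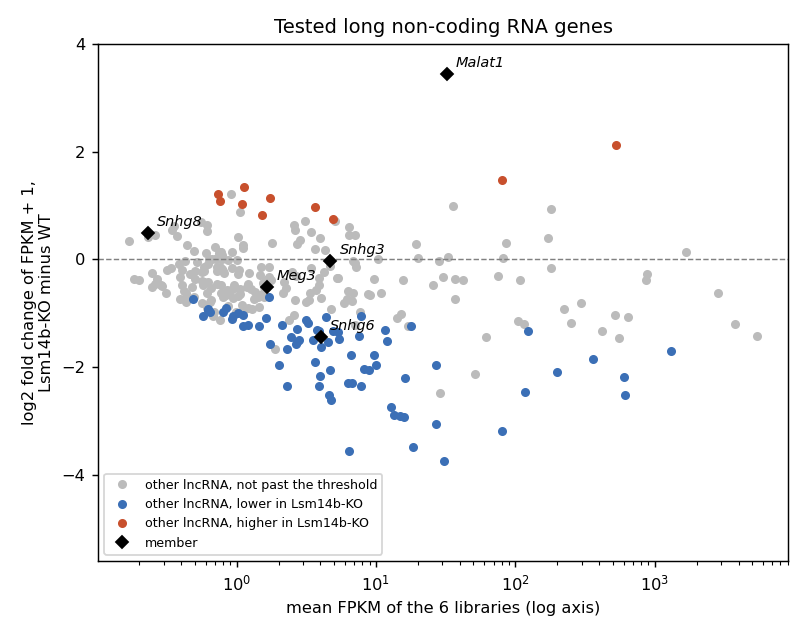
Log2 fold change of FPKM + 1 (Lsm14b-KO minus WT) against mean FPKM over the 6 libraries (log axis) for 297 other tested long non-coding RNA genes and, as diamonds, the 5 tested members. The 74 lower genes reach -3.74 and the 10 higher genes reach 2.13, below Malat1 at 3.44.

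Transcript length moved with these differences and is given beside them. Tested genes with transcripts up to 1000 nt, to which the hosts Snhg3, Snhg6 and Snhg8 belong, had a median log2 fold change of -0.63, with 1.37% called higher and 20.8% lower of 952 genes. Those over 5000 nt, to which Malat1 and Meg3 belong, had a median of 0.34, with 8.71% called higher and 8.98% lower of 735 genes. Among the other long non-coding RNAs, 145 of the 297 tested had up to 1000 nt. Their median was -0.63, with 2.07% called higher and 20.7% lower, close to all tested genes of that length. From 1000 to 2000 nt the median of 100 such RNAs was -0.60 against -0.31, with 33% lower against 19.5%. From 2000 to 5000 nt that of 51 was -0.31 against 0.14, with 21.6% lower against 12.1%. After the correction for length and GC content the log2 fold change of Malat1 was 3.26 and that of Snhg6 -0.44 (adjusted p = 0.458).

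Proteins of the bodies in which Malat1 and Neat1 reside were looked up in the same fit. Of 14 paraspeckle proteins 5 were tested, and 1 rose, or 20% against the 21.6% called of all tested genes. It was Hnrnph1, a splicing regulator, which went from 3.46, 3.70 and 3.47 FPKM to 6.15, 6.18 and 6.64 FPKM (log2 fold change 0.69, SE 0.19, adjusted p = 0.0386). Nono, a core protein of paraspeckles, had 5.98 to 6.74 FPKM in WT and 8.58 to 20.8 FPKM in Lsm14b-KO without passing (adjusted p = 0.0699), and Sfpq, its partner, had 1.25 to 1.74 and 0.561 to 1.70 FPKM (adjusted p = 0.477). Transcripts of both core proteins were above 0 in every library.

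Of 19 nuclear speckle and SR proteins 15 were tested, of which 2 rose and 1 fell, with a median of 0.46 against -0.08 over all tested genes. Srsf2, an SR protein, rose from 4.32, 5.53 and 6.87 FPKM to 10.9, 11.6 and 15.4 FPKM (log2 fold change 1.05, adjusted p = 0.0263). Sf3b1, a subunit of the U2 snRNP, rose from 1.65, 1.11 and 1.89 FPKM to 2.62, 6.84 and 4.41 FPKM (log2 fold change 1.08, adjusted p = 0.0406). U2af1, which recognises the 3′ splice site and has near-identical sequence at 3 other genes, fell from 37.2, 37.5 and 39.9 FPKM to 14.3, 3.44 and 10.1 FPKM (log2 fold change -2.10, adjusted p = 0.0164). Son, a core protein of speckles, had 2.28 to 2.97 FPKM in WT and 3.29 to 4.09 FPKM in Lsm14b-KO (adjusted p = 0.195). The share of speckle proteins called, 20%, was near the 21.6% of all tested genes, so nothing is read from these calls about speckle proteins.

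Machineries that act on snoRNA hosts were looked up as well, beside the 21.6% called of all tested genes. Of 17 snoRNP proteins and assembly factors 11 were tested, of which 0 rose and 1 fell (9.09% called). The gene that fell was Ruvbl1, an ATPase of snoRNP assembly with a near-identical copy at 1 other gene. It went from 3.26, 5.53 and 4.37 FPKM to 2.71, 0.465 and 1.16 FPKM (adjusted p = 0.0426). That call was lost under equal FPKM sums, quantile normalization and the length and GC correction. Of 15 nonsense-mediated decay factors 9 were tested, of which 1 rose and 2 fell (33.3% called). Magohb, an exon junction protein, fell from 53.7, 48.2 and 45.99 FPKM to 24.0, 3.66 and 9.82 FPKM (log2 fold change -2.22, adjusted p = 0.0277, a call lost with quantile normalization), and its partner Rbm8a, which shares sequence with 1 other gene, from 4.94, 5.17 and 4.58 FPKM to 1.37, 1.49 and 1.97 FPKM (log2 fold change -1.18, adjusted p = 0.00668, a call lost with equal FPKM sums). Smg8, a subunit of the SMG1 kinase complex, rose from 1.19, 0.972 and 1.57 FPKM to 2.76, 4.47 and 2.83 FPKM (log2 fold change 0.94, adjusted p = 0.0259).

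The TOP class, to which many hosts belong, was looked up in the same way. Of 16 further TOP mRNAs 13 were tested, of which 1 rose and 3 fell (30.8% called, against 21.6% of all tested genes). Their median was -0.53 against -0.08 over all tested genes. With equal FPKM sums both medians shifted, to -0.04 and 0.395. Btf3, a subunit of the nascent polypeptide-associated complex with 1 near-identical gene, fell from 888, 861 and 745 FPKM to 346, 156 and 242 FPKM (log2 fold change -1.81, adjusted p = 0.0136). Eef1a1, the translation elongation factor, with 9 near-identical genes, rose from 44.0, 39.4 and 48.6 FPKM to 63.8, 161 and 134 FPKM (log2 fold change 1.32, adjusted p = 0.0455). Eef1d, a subunit of the exchange factor for Eef1a1, fell from 32.1, 29.9 and 26.7 FPKM to 17.8, 11.2 and 12.4 FPKM (log2 fold change -1.07, adjusted p = 0.0297), a call lost with equal FPKM sums and with quantile normalization.

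Genes were ranked by how close their profile lay to that of Malat1. Likeness was the root mean square difference, over 6 libraries, between the deviations of 2 genes' log2(FPKM + 1) values from their own means, computed for 2559 genes with a mean of at least 5 FPKM. Hsph1, a large heat shock chaperone, was closest at 0.306, with 5.08, 4.93 and 5.16 FPKM in WT and 46.9, 40.5 and 50.0 FPKM in Lsm14b-KO. Ftl1, the ferritin light chain, followed at 0.504, with 7.60, 13.4 and 17.97 FPKM in WT and 76.3, 175 and 118 FPKM in Lsm14b-KO, and is uncertain because 6 other genes share near-identical sequence. Ugcg, the glucosylceramide synthase (0.64), Kdm1b, a histone demethylase needed for maternal imprints (0.693), and Nobox, an oocyte homeobox factor (0.702), came next. Kdm1b had 8.97, 8.60 and 10.7 FPKM in WT and 44.5, 54.3 and 33.2 FPKM in Lsm14b-KO, and Nobox 10.5, 10.5 and 16.5 FPKM against 46.3, 98.9 and 52.3 FPKM. Of these, only Hsph1 had WT values as close to each other as those of Malat1 and Lsm14b-KO values in a comparably narrow range. The likeness is a description over 6 libraries that share their groups, with no test.

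**Figure D5:**
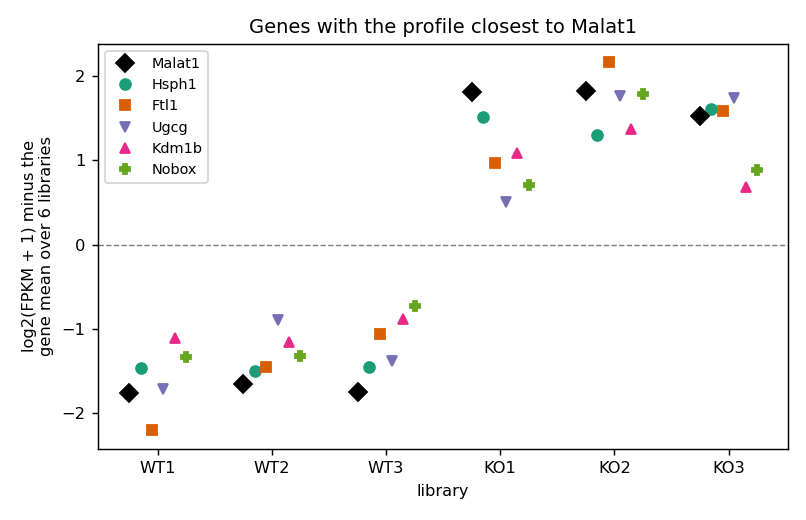
Deviation of log2(FPKM + 1) from the gene's own mean over 6 libraries, by library, for Malat1 (diamonds) and the 5 genes with the smallest root mean square difference from it. Hsph1, at a difference of 0.306, lies closest to Malat1, and all 6 genes are below 0 in every WT library and above 0 in every Lsm14b-KO library.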

How the data were processed

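RNA-Seq of 6 oocyte libraries (3 WT, 3 Lsm14b-KO) was analysed from 1 table of 24255 genes. Total RNA was amplified by Smart-seq2, per the labels, and the library kit is not named here because the sources name different kits. The authors aligned reads to mm10 with TopHat2 (version 2.0.13) and computed the deposited FPKM with Cufflinks (version 2.2.1). The annotation and strandedness are not given in the sources used here. The deposited columns of the authors' own comparison (log2 fold change, p-value and q-value) were not used. Spreadsheet dates replaced 27 gene symbols.

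FPKM was tested as log2(FPKM + 1) with limma 3.58.1 in R 4.3.3 (eBayes with an intensity trend, genotype as the only term), for genes with 1 FPKM or more in any library. Tests were two-sided with Benjamini-Hochberg adjustment over 6398 genes, and the procedure was tested on simulated data. An exact permutation test was used for members under that minimum. The table gives FPKM, so no count model was run. Fragment numbers were estimated, for single-exon members, from the smallest step of FPKM times length among low genes. They are approximate, because the annotation behind the FPKM is not given and not all low values fell near whole fragments. Transcripts and coordinates were from GENCODE vM21, with length and GC content found for 6318 (98.7%) of tested genes. Start sites were from RefSeq. Near-identical genes were sought with blastn 2.17.0 at 95% identity over at least 200 nt.

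Genotypes and replicate numbers came from the sample labels. The members and gene lists were chosen with earlier results of these data known. Genes named were the members, up to 3 called genes per list by size of change, the 5 genes closest to Malat1, nearest and overlapping genes of members, and Lsm14b; 1 gene that this rule names is not reported here. Other genes are said to be chosen after their values were seen, or are given as list members short of the threshold. Alternatives were other pseudocounts, filters, scalings, variance models, a replicate block, and leaving out each library.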

Additional observations from a re-analysis of the deposited data

How the results depend on the processing

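In the fit as reported and in all 16 alternatives, Malat1 was past the threshold and the other tested members were not; for Malat1 this repeats the choice of the set. Its log2 fold change ranged from 3.26 (length and GC correction) to 4.07 (equal FPKM sums). Meg3 ranged from -0.84 to -0.05 (adjusted p 0.0665 to 0.913) and Snhg6 from -3.71 to -0.44 (adjusted p 0.0511 to 0.458), each in 1 direction. Snhg8, tested in 15 of the alternatives, ranged from 0.22 to 3.97 (adjusted p 0.0657 to 0.519). It was listed at 0 in every WT library, so its positive direction was given in advance and is no support. Snhg3 changed sign: 0.73 and 1.78 with pseudocounts of 0.1 and 0.01, 0.39 with equal FPKM sums, 0.076 with quantile normalization, 0.98 with the length and GC correction, and between -1.02 and 0.99 when 1 library was left out. The cause was not tested.

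Over all genes, 1383 calls became 720 without the filter, among 14325 genes tested, and 315 to 2898 when 1 library was left out (396, 397 and 462 without WT replicates 1 to 3; 2898, 865 and 315 without Lsm14b-KO replicates 1 to 3). The 84 calls among other long non-coding RNAs, a class chosen after the data were seen, became 46 without the filter and 28 to 130 when 1 library was left out. The median of all genes shifted by 0.47, 0.14 and 0.18 under equal FPKM sums, quantile normalization and the length and GC correction. Higher and lower calls were then 833 and 486, 540 and 735, and 646 and 787, against 408 and 975.

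Deviations of same-numbered libraries from their genotype means had low correlations (r = 0.19, -0.13 and 0.02). These values cannot settle whether same-numbered libraries were prepared together, and the labels do not say. With the replicate block 1244 of all genes were called, 86 among other long non-coding RNAs and 1 among the members. Of the 21 genes named as changed outside the set, 16 passed with the block (not Hnrnph1, Sf3b1, Ruvbl1, Eef1a1 or Eef1d) and 9 without the filter. Depth limits the members at a few fragments, Kcnq1ot1 and Gas5, and exact zeros limit the hosts.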
